A study of Mus musculus with 12 samples.

Results

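Cytosolic ribosomal proteins are the protein subunits of the ribosome that translates nuclear mRNAs. They were taken from the array by name: probes whose symbol is Rpl or Rps followed by a digit, or Rplp0, Rplp1, Rplp2 or Rpsa, without the Rps6k kinases. The array carried 105 such probes for 71 genes. Of these, 83 probes of 62 genes were above background (detection p below 0.01 in 4 or more of the 12 kidneys), among 16179 such probes of 11834 genes in all. The other 22 probes, 20 of which were above background on no array, had raw signals between 79.1 and 106.9 and were not tested. They leave 9 genes unmeasured, among them Rpsa and Rps18, whose products are constant parts of the small subunit, and the paralogs Rpl22l1 and Rpl39l. A probe that is not above background does not show that its transcript is missing.

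The kidneys came from 12 male C57BL/6 mice, 10 weeks old, on Illumina MouseWG-6 v2 BeadChips, on which beads carrying one probe sequence read each transcript with a single dye. The 6 colistin mice received 16 mg/kg/day of the antibiotic, split into 2 doses, and the 6 saline mice 0.1% saline 2 times a day, with 72 hours of exposure. Colistin, a polymyxin, kills Gram-negative bacteria by disrupting their outer membrane, and it can injure the kidney. The comparison is of kidney transcripts with and without exposure. Each of 2 BeadChips held 3 mice of each group; saline mice held positions 1, 3 and 5 and colistin mice 2, 4 and 6, so position and treatment cannot be told apart. As a check of the tissue, 8 of 8 kidney markers were measured, 7 of them on all 12 arrays and the podocyte gene Nphs1 on 5. In whole kidney RNA, fewer cells of a type and less RNA per cell cannot be told apart.

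Each ribosome joins a small subunit, which reads the mRNA, and a large subunit, which makes the peptide bond. Their proteins are made in matched amounts, and most of their mRNAs begin with a run of pyrimidines, the TOP motif, through which the mTOR pathway and the RNA-binding protein Larp1 control their translation. That control acts on ribosome loading and need not show in transcript levels. When ribosome assembly fails, some free ribosomal proteins bind Mdm2, the inhibitor of p53.

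The sequence around the start of these genes was read for pyrimidine runs. A run was counted anywhere near the start, also upstream of it, so the counts do not show whether the mRNA begins with one. RefSeq start sites (GRCm38.p6) were matched for 48 of the 62 genes, with 58 start sites. All windows were read on the sense strand, the one with the sequence of the mRNA. Within 15 bases on each side of the start, a run of at least 8 pyrimidines (C or T) was present at 36.2% of the 58 starts. It was present at 12% of 32851 starts of all genes. The letters CTTTC were present on the sense strand at 20.7% of the 58 starts, against 4.05% of all. On the other strand they were present at 3.45%, against 3.6%. The CTTTC matches can lie inside the pyrimidine runs. The genes below are those with the lowest or highest test statistic that have 1 annotated start. Capitals mark the longest pyrimidine run in the 30 bases, of which the last 15 begin at the annotated start.
Rpl28 (chr7:4792950-4792979, + strand): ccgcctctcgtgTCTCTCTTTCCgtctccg
Rpl31 (chr1:39367836-39367865, + strand): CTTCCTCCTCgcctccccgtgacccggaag
Rpl7a (chr2:26910792-26910821, + strand): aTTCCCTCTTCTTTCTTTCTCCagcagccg
Rpl39 (chrX:37085208-37085237, - strand): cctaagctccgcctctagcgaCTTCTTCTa
Rps4x (chrX:102189377-102189406, - strand): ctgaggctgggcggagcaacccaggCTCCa
Rps26 (chr10:128626492-128626521, - strand): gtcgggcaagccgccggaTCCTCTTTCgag
Rps15a (chr7:118116133-118116162, - strand): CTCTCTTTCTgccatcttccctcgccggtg
Rpl36al (chr12:69184053-69184082, - strand): caTTCCCgtcgctcaggttcagttccgact
Rpl4 (chr9:64173372-64173401, + strand): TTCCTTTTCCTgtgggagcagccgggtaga
The 4 genes at the low end of the comparison, Rpl28, Rpl31, Rpl7a and Rpl39, had runs of 11, 10, 21 and 8 bases. The 5 at the high end, Rps4x, Rps26, Rps15a, Rpl36al and Rpl4, had runs of 4, 9, 10, 5 and 11. Runs of 8 or more thus stood at both ends. Those of Rpl31, Rps15a and Rpl4 ended before the annotated start and so lie outside the annotated mRNA.

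No ribosomal protein transcript passed the test. Values are normalized log2 signals, and changes are differences of group means on that scale, colistin minus saline. In limma, with Benjamini-Hochberg adjustment over all 16179 probes and a threshold of 0.05, 0 of the 83 probes were called, where 0.457% of all probes were. At an unadjusted p under 0.05 the count was 1 of 83, where 10.9% of all probes passed, and limma with a trend and robust variances also called 0. The changes of the 62 genes, each read by its probe with the highest mean, ran from -0.36 (Rpl39) to 0.21 (Rps4x), with a median standard error of 0.11. The 95% interval of the change lay within 1.5-fold in both directions for 75 of the 83 probes, and for 80.6% of all probes. For those 75, a change of 1.5-fold or more lay outside the interval, and smaller ones inside it were not excluded.

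**Figure D1:**
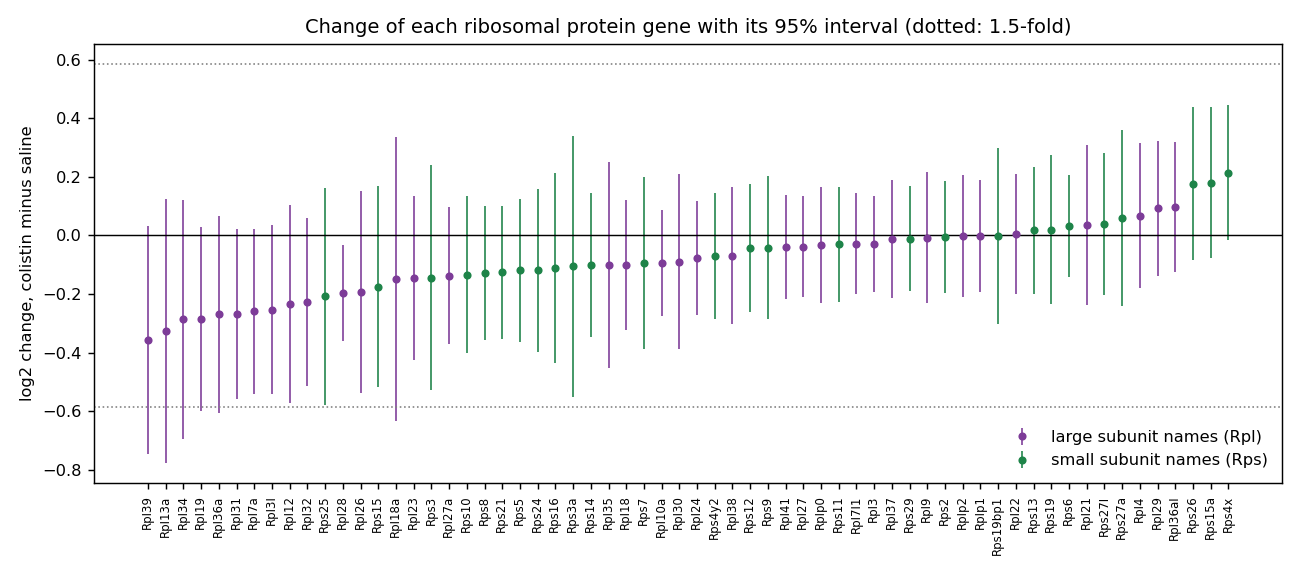
Change of each of the 62 genes (x axis, ordered by size; y axis, log2 signal, colistin minus saline) with its 95% interval from limma, in purple for Rpl and green for Rps names. Dotted lines mark a change of 1.5-fold. Rpl39 is lowest at -0.36 and Rps4x highest at 0.21, and 49 of 62 points lie below 0.

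Most of the values lay slightly below 0. Of the 62 genes 49 had a change below 0 and 13 above, with a median of -0.08; among all 11834 genes 48.5% were below 0 and the median was 0.0057. The median depended on which saline mice were included. Saline mice 2 and 5 stood highest in these genes among the saline mice, so leaving them out was bound to raise the change. The same applies to each single gene below in which these mice stood above the other saline mice. The median was -0.11 without saline mouse 1, which stood lowest. It was -0.02 without saline mouse 2, -0.05 without saline mouse 5 and 0.02 without both. The median was also 0.06 without normalization between arrays and 0.02 with arrays set to a common median, settings in which the median of all probes stood at 0.24 and 0.20. Relative to all probes, both therefore put the members at -0.18. Large subunit genes had a median of -0.09, with 30 of 35 below 0, and small subunit genes -0.04, with 19 of 27 below 0. Without saline mice 2 and 5 these medians were 0.0052 and 0.05.

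Saline mice were spread more widely than colistin mice in these transcripts (-0.08 ± 0.04 in colistin mice and -0.0037 ± 0.20 in saline mice; mean and SD of the medians per mouse, n = 6 each). The median deviation of the 62 genes from their saline means was -0.14, -0.09, -0.06, -0.03, -0.11 and -0.06 in colistin mice 1 to 6. In saline mice 1 to 6 it was -0.30, 0.25, -0.12, 0.06, 0.15 and -0.07. The colistin values thus all lay inside the saline range, and the saline mice fell on both sides of them. In saline mouse 2, 54 of 62 genes were above the saline mean, in saline mouse 5, 56, and in saline mouse 1, 3. In colistin mice this count ran from 6 in mouse 1 to 28 in mouse 4. A total of 53 genes were above the mean in saline mouse 2 and below it in saline mouse 1, so most members shared the direction of these differences between saline kidneys.

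**Figure D2:**
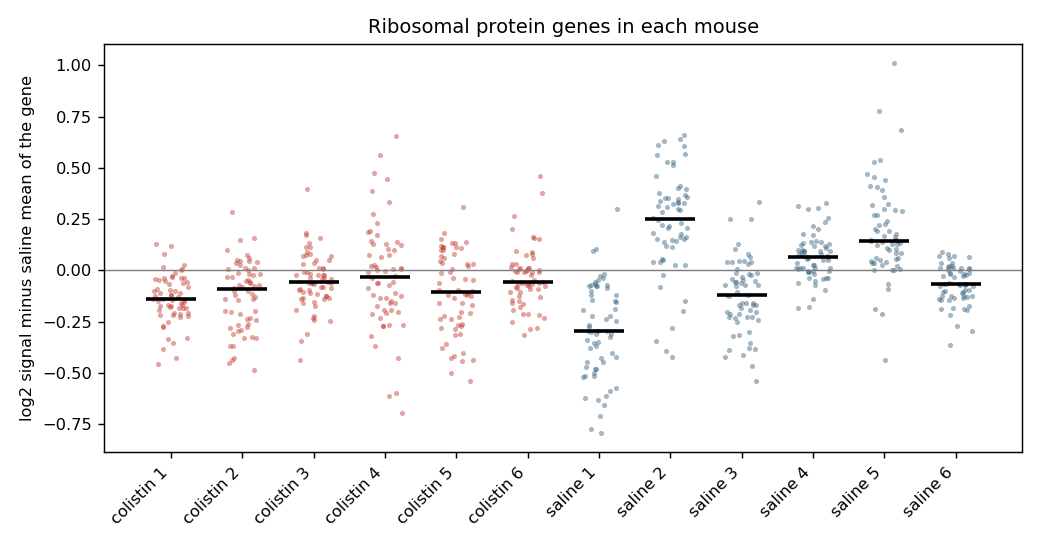
Each point is 1 of the 62 genes in 1 mouse (x axis; colistin in red, saline in blue), as its log2 signal minus the mean of that gene over the 6 saline mice (y axis); bars are medians. Medians of the colistin mice run from -0.14 to -0.03, and those of the saline mice from -0.30 to 0.25.

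Gene by gene, the SD among mice had a median over the 62 genes of 0.12 in colistin mice and 0.23 in saline mice. It was larger in saline mice for 74 of 83 probes, where this held for 78.8% of all probes. Rpl13a, a large subunit protein whose mRNA is often used as a reference in PCR, had an SD of 0.17 in colistin mice and 0.57 in saline mice (n = 6 each). Its signal was 8.62, 8.74 and 9.04 (lowest, median, highest) in colistin mice and 8.31, 9.18 and 9.77 in saline mice, with saline mouse 1 lowest and saline mouse 2 highest of all 12. The Rpl13a change was -0.33 ± 0.21 (SE; limma adjusted p = 0.566). It was -0.19 without saline mouse 2 and -0.04 without saline mice 2 and 5. Rpl3, which lies near the peptide-bond centre, was tight in both groups, with SDs of 0.09 in colistin mice and 0.05 in saline mice and a change of -0.03 ± 0.08 (SE).

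**Figure D3:**
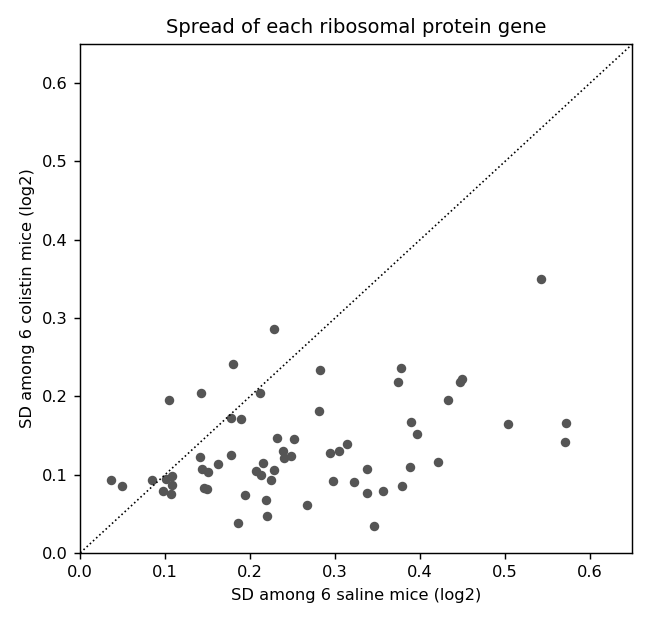
SD of the log2 signal among 6 colistin mice (y axis) and among 6 saline mice (x axis) for each of the 62 genes; the dotted line marks equal spread. Most points lie under the line, with median SDs of 0.12 in colistin mice and 0.23 in saline mice.

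The order of the saline mice in these transcripts was the order of their arrays as a whole. The first principal component of all probes held 49.2% of the variance. On it saline mice 2, 5, 4, 6, 3 and 1 stood at 64.6, 28.7, 13.6, -3.28, -10.1 and -27.1. This was the order of their ribosomal protein medians from high to low. Leaving the 83 probes out gave the same order, but so few of 16179 probes could hardly have changed it. Colistin mice lay between -14.7 and 0.69 on this component. Saline mouse 5 had the dimmest array, with a 95th percentile of the raw signal of 475, against 752 or more on the other 11. That percentile averaged 870 ± 77.3 in colistin mice and 746 ± 140 in saline mice (SD, n = 6 each; exact two-sided permutation p = 0.0584, 0.0877 adjusted over 3 array measures). The 75th percentile averaged 131 ± 5.66 in colistin mice and 122 ± 9.40 in saline mice (SD, exact permutation p = 0.0433, 0.0877 adjusted). Markers of other cells had 0 called in the endothelial, macrophage, fibroblast, erythrocyte and lymphocyte lists, where 0.457% of all probes were. At an unadjusted limma p under 0.05 the counts were 6 of 7 endothelial, 3 of 7 macrophage and 4 of 6 fibroblast markers. They were 0 of 3 for erythrocyte and 1 of 1 for lymphocyte markers, and 10.9% of all probes passed at this threshold. Of 8 endothelial markers 7 were measured, each with a change below 0. Median changes were -0.46 for endothelial, -0.43 for macrophage and -0.56 for fibroblast markers, and -0.40, -0.32 and -0.50 without saline mice 2 and 5. For the endothelial markers the mean deviation was -0.79 for saline mouse 1 and 0.29 for saline mouse 2. Endothelial summed signals were 1485 to 2097 in colistin mice and 1159 to 3423 in saline mice. For 7 of 8 macrophage markers the summed signals were 761 to 1246 and 955 to 1472 in colistin and saline mice, and for 6 of 7 fibroblast markers 622 to 1015 and 1040 to 3055. Of 8 lymphocyte markers, Cd52 alone was above background, at -0.65 ± 0.29 (SE; -0.18 without saline mice 2 and 5), and 3 of 4 erythrocyte markers were measured, with a median of -0.12 (0.23 without these mice). Their part in the ribosomal protein results was not tested.

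Among large subunit genes the lowest test statistics were those of Rpl28, Rpl31, Rpl7a, Rpl39, Rpl19 and Rpl3l. Rpl28 (ILMN_2759235), whose start is shown above, was at 11.76, 11.95 and 12.02 (lowest, median, highest) in colistin mice and 12.08, 12.13 and 12.17 in saline mice. All 6 colistin mice lay under all 6 saline mice, the 1 member probe of 83 whose groups did not overlap, where 1% of all probes did not and 0.402% did not with colistin lower. The difference was small: the Rpl28 change was -0.20 ± 0.08 (SE), 1.15-fold lower in colistin mice, and did not pass (limma adjusted p = 0.381). It was -0.23 on BeadChip 1, -0.16 on BeadChip 2 and -0.18 without saline mice 2 and 5, so it was of similar size without these mice and on each BeadChip.

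Rpl39, which lines the tunnel through which the new peptide leaves, had the lowest change, -0.36 ± 0.18 (SE; adjusted p = 0.491). Its signal was 11.96, 12.36 and 12.52 in colistin mice and 12.02, 12.74 and 13.19 in saline mice. The groups overlapped over most of the colistin range, and the Rpl39 change was -0.14 without saline mice 2 and 5. Rpl31, at the tunnel exit, was at 12.15, 12.22 and 12.25 in colistin mice, the smallest colistin SD of the 62 genes (0.03), and at 11.96, 12.49 and 12.85 in saline mice. Here the saline mice lay on both sides of the colistin mice, with saline mouse 1 lowest and mouse 2 highest. The Rpl31 change was -0.27 ± 0.14 (SE; adjusted p = 0.487), and -0.09 without saline mice 2 and 5. Its other 2 probes gave -0.20 and -0.21.

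Rpl7a was at 9.08, 9.49 and 9.57 in colistin mice and 9.28, 9.70 and 10.05 in saline mice, a change of -0.26 ± 0.13 (SE), and -0.15 without saline mice 2 and 5. Rpl19, another large subunit protein, was at 9.89, 10.00 and 10.14 in colistin mice and 9.87, 10.23 and 10.82 in saline mice (-0.29 ± 0.15, SE), and at -0.07 without saline mice 2 and 5. In both the groups overlapped, and adjusted p was 0.490 for Rpl7a and 0.496 for Rpl19.

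**Figure D4:**
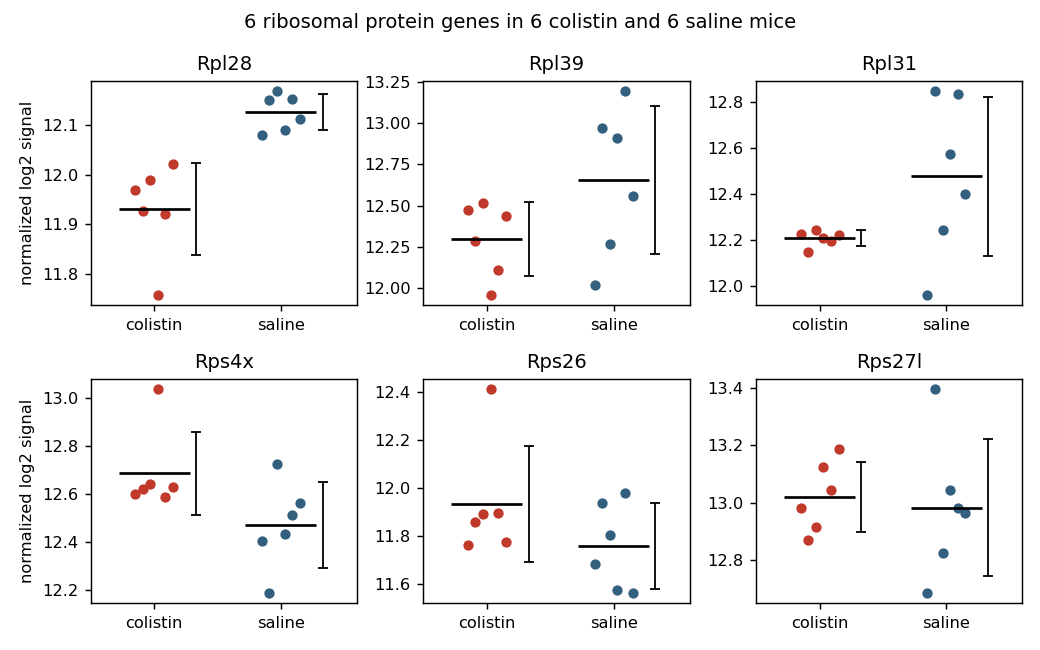
Normalized log2 signal (y axis, scaled per gene) of 6 genes in 6 colistin mice (red, left) and 6 saline mice (blue, right); lines are means and brackets their SD. Rpl28 is the gene whose groups do not overlap; in Rps4x and Rps26 colistin mouse 4 stands at 13.04 and 12.41, above the other mice.

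The 6 highest test statistics were those of 3 small subunit genes, Rps4x, Rps15a and Rps26, and 3 large subunit genes, Rpl36al, Rpl29 and Rpl4. Rps4x, the X-linked copy of the S4 protein, was at 12.59, 12.62 and 13.04 in colistin mice and 12.19, 12.47 and 12.72 in saline mice, with a change of 0.21 ± 0.11 (SE; adjusted p = 0.487). Colistin mouse 4 held the top value, and without it the Rps4x change was 0.14. Rps26, which sits where the mRNA leaves the small subunit, was at 11.76, 11.88 and 12.41 in colistin mice and 11.56, 11.75 and 11.98 in saline mice (0.18 ± 0.12, SE; adjusted p = 0.588). Colistin mouse 4 was again highest, and without it the Rps26 change was 0.08; without saline mice 2 and 5 it was 0.28. All 6 colistin mice were above the saline mean in both genes, although the groups overlapped. In the same mouse Rpl39 and Rpl7a had their lowest value of all 12, and its median deviation was -0.14 over large subunit genes and 0.08 over small subunit genes. In the other colistin mice the small subunit medians ran from -0.14 to -0.0071.

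Rps15a was above background on 4 of 12 arrays only, 3 colistin and 1 saline, so it passed the detection filter mainly through the colistin arrays. It was at 4.62, 4.85 and 5.05 in colistin mice and 4.46, 4.60 and 4.99 in saline mice (0.18 ± 0.12, SE). The Rps15a change was 0.22 without colistin mouse 4. Rpl29, a large subunit protein, had 0.09 ± 0.11 (SE) at its brighter probe and -0.13 ± 0.08 (SE) at the other; the first was 0.02 without colistin mouse 4. Rpl36al, a near copy of Rpl36a, was at 0.10 ± 0.10 (SE), and Rpl4 at 0.07 ± 0.12 (SE), with adjusted p of 0.716 and 0.823. The Rpl36al change was 0.01 without saline mouse 2. Without colistin mouse 4 it was 0.12, and the Rpl4 change was 0.10; without saline mice 2 and 5 they were 0.03 and 0.04.

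Members with roles beyond the ribosome body did not pass either. Rps6, the subunit phosphorylated by the S6 kinases downstream of mTOR, was at 11.47, 11.54 and 11.70 in colistin mice and 11.40, 11.50 and 11.66 in saline mice, and the groups overlapped. The Rps6 change was 0.03 ± 0.08 (SE; adjusted p = 0.889; 95% interval -0.14 to 0.21). Rplp1 and Rplp2, acidic proteins of the stalk that recruits elongation factors, were at -0.0020 and -0.0024, with SEs of 0.09 and 0.10. Rplp0, the stalk base, was at -0.03 ± 0.09 (SE). Its probe was dim, at 5.73 to 6.06 in colistin mice and 5.72 to 6.14 in saline mice, which limits its change. Of the Mdm2-binding proteins, Rpl23 was at -0.15 ± 0.13 (SE; adjusted p = 0.667) and Rps7 at -0.10 ± 0.14 (SE; adjusted p = 0.786), and Rpl5 and Rpl11 were not analysed here. Both measured genes ranged widely among saline mice: Rpl23 was at 13.47, 13.63 and 13.70 in colistin mice and at 13.25, 13.78 and 14.07 in saline mice. Rps7 was at 12.40, 12.62 and 12.70 in colistin mice and 12.21, 12.72 and 13.20 in saline mice. Colistin mice thus lay inside the saline range in both. Without saline mice 2 and 5 the changes were 0.02 for Rpl23 and 0.07 for Rps7, of the other sign, as were those of Rplp0 (0.03), Rplp1 (0.05) and Rplp2 (0.03). In Rpl23 and Rps7 these mice held the highest saline values, so leaving them out was bound to raise the change.

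Some names in the family are not regular subunits, and these too did not pass. Rps27l, a paralog of Rps27 that p53 can induce, was at 12.87, 13.01 and 13.19 in colistin mice and 12.69, 12.97 and 13.40 in saline mice, a change of 0.04 ± 0.11 (SE; adjusted p = 0.906), and 0.14 without saline mice 2 and 5. Rpl3l, the paralog of Rpl3 known from striated muscle, was at 7.53, 7.62 and 7.75 in colistin mice and 7.49, 7.91 and 8.29 in saline mice (-0.25 ± 0.14, SE; adjusted p = 0.503). The Rpl3l change was -0.12 without saline mice 2 and 5. Rpl7l1, a factor of large subunit assembly, was at -0.03 ± 0.08 (SE). Rpl22, whose paralog Rpl22l1 was not above background, was at 0.0039 ± 0.10 (SE). Rps4y2 (now Rps4l, a transcribed pseudogene in RefSeq) was at -0.07 ± 0.10 (SE). Rps19bp1, which encodes a binding partner of the S19 protein, lies in the family by name alone. Without these paralogs and Rps19bp1 the median of the remaining 57 genes was -0.09.

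Several genes were read by more than 1 probe. Of 16 genes with several probes above background 3 had changes of both signs, and the widest range was 0.32, in Rps24, a small subunit protein. Its probe for transcript variant 1 was at 13.08 ± 0.13 in colistin mice and 13.20 ± 0.30 in saline mice (SD, n = 6 each), its probe for variant 2 at 5.98 ± 0.15 and 5.99 ± 0.52 in colistin and saline mice, and a probe without a transcript name at 5.67 ± 0.13 and 5.47 ± 0.36. Their changes were -0.12 ± 0.13, -0.02 ± 0.20 and 0.20 ± 0.15 (SE). For Rpl27a the 3 changes ran from -0.19 to -0.0071, and for Rps3, which also takes part in DNA repair, the 2 were -0.14 and -0.31. Without saline mice 2 and 5 the brightest probes gave 0.02 for Rps24, -0.03 for Rpl27a and 0.08 for Rps3. Probes with a mean log2 signal of 10 or more (52) had a median change of -0.10, and dimmer ones (31) -0.03. A further 42 probes above background are defined on the array as similar to a ribosomal protein, under names outside the rule, and many ribosomal protein genes have near-identical copies, so signals of parent and copy can mix. None of the 42 was called, where 0.457% of all probes were. At an unadjusted p under 0.05 the count was 0, where 10.9% of all probes passed. The median of the 42 was -0.12.

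The comparison was repeated on each BeadChip. The median of the 62 genes was 0.00083 on BeadChip 1, which held colistin mice 4 to 6 and saline mice 1 to 3, and -0.16 on BeadChip 2. Changes were below 0 for 31 genes on BeadChip 1 and for 53 on BeadChip 2, with 28 below 0 and 6 above on both. The difference itself was tested as an interaction: 0 of 83 probes passed after adjustment (0% of all probes did) and 0 of 83 at an unadjusted p under 0.05, where 2.55% of all probes passed. Rpl13a had the lowest value on either, -0.66 on BeadChip 2 (adjusted p = 0.0772 within it), against 0.0061 on BeadChip 1, where the high saline mouse 2 and the low saline mouse 1 lay together.

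**Figure D5:**
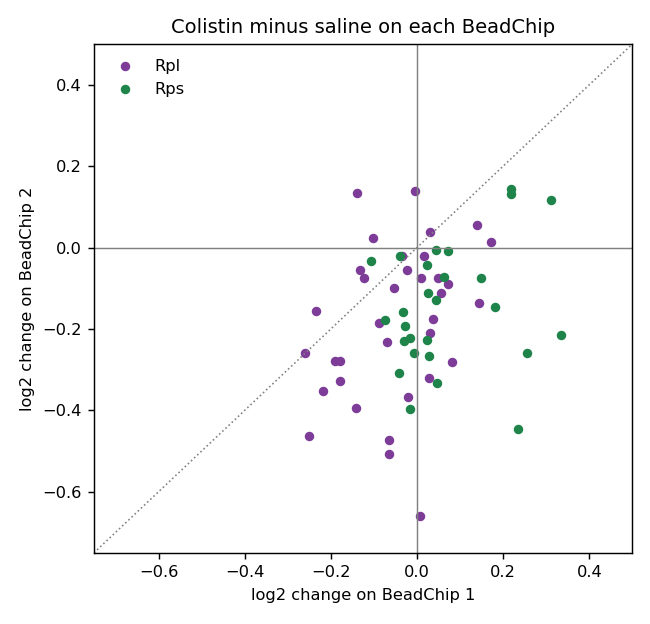
Change of each of the 62 genes (log2, colistin minus saline) on BeadChip 1 (x axis) and BeadChip 2 (y axis), 3 mice of each group on each; Rpl in purple, Rps in green, dotted line for equal change. Points centre on 0.00083 on BeadChip 1 and on -0.16 on BeadChip 2.

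Other parts of the translation machinery were read from fixed lists, each gene by its probe with the highest mean. Mitochondrial ribosomal proteins, which belong to the separate ribosome of the mitochondrion, had 0 of 67 called (limma), where 0.457% of all probes were. At an unadjusted limma p under 0.05 the count was 3 of 67, where 10.9% of all probes passed. Their median was -0.08, with 47 below 0. The median was -0.01 without saline mice 2 and 5. Mrpl51 was at 0.27 ± 0.09 and Mrpl55 at -0.30 ± 0.13 (SE), the second at -0.16 without these mice. Their per-mouse medians ran from -0.13 to -0.00078 in colistin mice and from -0.10 to 0.12 in saline mice. Gnb2l1 (Rack1, a scaffold on the small subunit), which the naming rule leaves out, was above background on 5 of 12 arrays and was at -0.15 ± 0.14 (SE), and -0.0054 without saline mice 2 and 5.

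Elongation factors and other TOP mRNAs lay mostly above 0, with 10 of 13 above 0, 0 called and a median of 0.08 (0.03 without saline mice 2 and 5). Of all probes 0.457% were called. At an unadjusted limma p under 0.05, 0 of 13 passed here and 1 of 21 among the initiation factors below, where 10.9% of all probes did. Eif4b, which aids the scanning helicase, was at 0.24 ± 0.11 (SE), Pabpc4, a poly(A)-binding protein, at 0.28 ± 0.15 (SE) and Eef1a1, which brings aminoacyl-tRNA to the ribosome, at 0.08 ± 0.08 (SE). Without these mice they were at 0.10, 0.08 and 0.03. Of 21 initiation factors 0 were called, with a median of 0.08 (0.05 without these mice). Among them Eif4g2 was at 0.25 ± 0.09 (SE; adjusted p = 0.318) and Eif3b at 0.41 ± 0.20 (SE), or 0.16 and 0.10 without them.

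Genes that build ribosomes had medians close to 0, with single genes further from it, and mTOR pathway genes had a higher median. Of all probes 0.457% were called, so 0 called in lists of these sizes is near that share. RNA polymerase I genes had 0 of 12 called and a median of 0.01 (0.06 without saline mice 2 and 5), with Ubtf, which binds the rRNA gene promoter, at 0.17 ± 0.11 (SE; 0.28 without these mice) and the polymerase subunit Znrd1 at 0.13 ± 0.09 (SE). Ribosome assembly genes had 0 of 51 called, 33 above 0 and a median of 0.04. At an unadjusted limma p under 0.05, 0 of 12 polymerase genes and 3 of 51 assembly genes passed, where 10.9% of all probes did. Grwd1 was at 0.32 ± 0.11 and Heatr1 at 0.31 ± 0.12 (SE), and Npm1, the nucleolar chaperone, at 0.14 ± 0.11 (SE). Across mTOR pathway genes and TOP regulators 0 of 15 were called and the median was 0.17 (0.05 without saline mice 2 and 5). In this list 3 of 15 passed at an unadjusted limma p under 0.05. Sesn1, a p53-responsive inhibitor of mTOR signalling, was lowest at -0.51 ± 0.12 (SE; adjusted p = 0.0755), and Sesn2, its stress-responsive relative, was at 0.52 ± 0.18 (SE; adjusted p = 0.313). Larp1 was at 0.45 ± 0.21 (SE; adjusted p = 0.454). Without these mice Sesn2 was at 0.26 and Larp1 at 0.10.

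Of 2 other lists read in the same kidneys, that of dividing cells held genes that passed. Of 3 measured genes of the Mdm2 and p53 list, Cdkn1a, the cell-cycle inhibitor p21, was above background on 6 colistin arrays and 1 saline array. It passed the detection filter through the colistin arrays, so its test result and size are not given. Mdm2 was at -0.03 ± 0.11 and Trp53 at 0.34 ± 0.18 (SE), or 0.06 and 0.05 without saline mice 2 and 5. Of 8 markers of dividing cells, Mki67, Birc5, Prc1 and Cdc20 were called higher, where 0.321% of all probes were. Top2a, Ccnb1, Plk1 and Cdc2a passed the detection filter only through the colistin arrays, so their test results are not given. Each of the 8 was above background on all 6 colistin arrays. On saline arrays Top2a and Ccnb1 were above it on none, Plk1 on 1, Cdc2a on 3, Mki67 and Birc5 on 5, and Prc1 and Cdc20 on all 6. Prc1, a protein of the spindle midzone, rose by 1.77 ± 0.19 (SE; limma adjusted p = 0.000239).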

How the data were processed

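RNA from 6 colistin and 6 saline mouse kidneys was read on Illumina arrays. The authors deposited raw intensities of 45281 probes on a linear scale, with detection p-values against negative control beads, per the file headers. These were not background-subtracted (lowest signal 74.7). They also deposited normalized intensities per probe and per gene symbol, and per the submitters' processing notes GenomeStudio and Partek were among the programs used. The normalization method is not given in the sources used here. Arrays detected between 14661 and 16154 probes (exact permutation p = 0.877 between groups); the number of arrays limits the precision.

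Background correction and quantile normalization of the raw values used neqc (offset 16, which compresses changes of dim probes) in limma 3.58.1 (R 4.3.3). Probes with a detection p under 0.01 on 4 or more of 12 arrays were kept and 29102 dropped. lmFit and eBayes compared the groups with no other term, two-sided, adjusted by Benjamini-Hochberg over all kept probes. The fit was tested on simulated data. Each gene stands by its kept probe with the highest mean. Symbols were updated and starts taken through RefSeq tables (GRCm38.p6).

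The members, lists and rules were chosen with earlier results of these data known. Genes were named by rule: any called member, the 6 highest and 6 lowest test statistics, set members (Rps6, stalk, Mdm2-binding and reference genes, paralogs with parents), the 4 widest probe spreads, and of each list the called members or otherwise the 2 with the smallest p; a few others were added after their values were seen (Gnb2l1, Npm1, Eef1a1, Larp1, Mdm2, Trp53, Rps19bp1; of the dividing cell markers a change is given for Prc1 only). No member was called, so that part of the rule named none. Alternatives covered background, normalization, source, filter, BeadChip, replicate number, test, threshold and mice left out. Same-numbered mice were checked for shared deviations: the correlations ran from -0.26 to 0.12, and the numbers were not taken to pair the mice.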

Additional observations from a re-analysis of the deposited data

Results flagged for a closer look

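Among 56 sets of 6 mice examined for a mouse far from the rest, 6 had one, and chance flags about 1 in 20 such sets. In 4 of them the far mouse was colistin mouse 4. It was highest of the colistin mice in Rps4x (log2 signal 13.04, with a gap of 0.878 of the group's range), Rps26 (12.41, gap 0.792) and Rps6 (11.70, gap 0.649), and lowest in Rpl7a (9.08, gap 0.700). Without colistin mouse 4 the changes were 0.14 for Rps4x, 0.08 for Rps26, 0.0033 for Rps6 and -0.19 for Rpl7a; none passed with or without it. The other 2 were saline mice: saline mouse 2 was low in Rpl36al (12.10, gap 0.627), and saline mouse 1 was low in Rpl22 (8.85, gap 0.665). Without saline mouse 1 the Rpl22 change was -0.06. The causes were not tested.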

How the results depend on the processing

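The count of ribosomal protein probes called stayed at 0 in limma in every alternative of background, normalization, source, filter, BeadChip, test and left-out mouse, and at an adjusted p under 0.1; at an unadjusted p under 0.05 it was 1. The median change of the 62 genes was below 0 in 27 of 31 alternatives and ran from -0.16 to 0.06. It was above 0 without normalization between arrays (0.0635), with arrays shifted to a common median (0.0168), on BeadChip 1 (0.00083) and without saline mice 2 and 5 (0.0206). Leaving out 1 mouse gave -0.11 to -0.02. With the replicate block (the replicate number as a term) the count was 0 and the median -0.08, and no call changed. Of 755 values of the 27 named genes, 0 were called and 65 had the other sign from the one reported; 9 genes kept their sign throughout (Rpl19, Rpl28, Rpl29, Rpl31, Rpl36al, Rpl39, Rps15a, Rps26 and Rps4x). Rps15a, above background on 4 arrays, lies near background, which limits its change. No alternative called an interaction with the BeadChip.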
